A study of Homo sapiens with 6 samples.

Results

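RNA levels of 10 genes of the AP-1 network were followed in 12Z cells after knockdown of the long noncoding RNA LINC01133. The members were FOS, FOSB, FOSL1, FOSL2, JUN, JUNB, JUND, BATF3, MAFF and CREB5, and 10 of 10 were found by symbol among the 60660 genes counted. They were chosen by symbol and with this same comparison in view: CREB5 was selected on its fold change, as one of the most raised factors, and joined to the Fos and Jun genes, BATF3 and MAFF. Their fold changes are therefore given as a description, without a test of their own.

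12Z is an immortalized epithelial line grown out of endometriosis tissue. There were 3 control libraries, from cells given a non-targeting siRNA, and 3 knockdown libraries, from cells given siRNA LINC01133a at 10 nM. RNA was taken 72 h after lipid transfection in both groups, and poly-A RNA was sequenced. The comparison asks which transcripts differ once LINC01133 is reduced. Only 1 siRNA and 1 cell line were sequenced, so the loss of LINC01133 and any other action of this siRNA cannot be told apart. The study calls the replicates biological, and p-values set the difference between groups against the spread between these libraries.

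AP-1 is a family of paired transcription factors. A Jun protein (JUN, JUNB, JUND) binds DNA as a dimer with a Fos protein (FOS, FOSB, FOSL1, FOSL2), with another Jun protein, or with relatives of the ATF, BATF and JDP type, through a basic region and a leucine zipper. Fos-Jun dimers favour the element TGACTCA, and dimers that contain ATF or CREB proteins favour the longer element TGACGTCA. FOS, FOSB, JUN and JUNB are classical immediate early genes, induced within minutes by serum, stress and growth factors through MAP kinases, whereas FOSL1, FOSL2 and JUND are more stable components of proliferating and migrating cells. CREB5 is the close relative of ATF2 and ATF7 and can pair with JUN. In endometrial tissue, AP-1 takes part in the response to steroid hormones and in matrix remodelling.

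Several AP-1 genes, JUN among them, are known as AP-1 targets themselves, so the promoters of the members were searched for AP-1 and CREB elements. RefSeq promoter windows (GRCh38.p14, 250 bases before to 50 bases after an annotated start) were at hand for 8 of 10 members, with 3 windows for CREB5 and 2 for MAFF. Of these 8 members, 5 held a TGACTCA, TGACGTCA or TGACATCA element on either strand. The stretches around these elements are shown 5′ to 3′ on the strand of the gene, with the element in capitals, in the order FOSL2 (chr2:28392842-28392888, plus strand), JUN (chr1:58784087-58784134, minus strand), JUND (chr19:18281795-18281842, minus strand), MAFF (chr22:38201920-38201967, plus strand) and CREB5 (chr7:28686069-28686115, plus strand).
FOSL2: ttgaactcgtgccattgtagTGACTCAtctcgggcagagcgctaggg
JUN: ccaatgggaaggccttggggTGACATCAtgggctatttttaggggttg
JUND: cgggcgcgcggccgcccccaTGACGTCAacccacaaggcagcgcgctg
MAFF: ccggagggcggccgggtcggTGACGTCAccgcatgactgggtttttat
CREB5: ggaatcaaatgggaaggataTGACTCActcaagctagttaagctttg

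TGACTCA was found in 4.95% of all 35116 promoter windows, TGACGTCA in 1.85% and TGACATCA in 2.61%, and in 3.56%, 2.82% and 1.57% of the 15828 windows of tested genes. Counted per gene, 10.3% of 10910 tested genes with a window held at least 1 of the 3 elements. JUN, named above as a known AP-1 target, was the only member with TGACATCA. CREB5 and MAFF also had more than 1 window, so nothing is read from the 5 of 8 members. The element of CREB5 begins 44 bases upstream of the third of its 3 annotated starts. Gene counts do not say which CREB5 start was used, and a match of letters is no evidence that a factor bound there.

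LINC01133 itself fell to 16.1% of its control level, which checks the labels. Normalized counts (deposited counts scaled by TMM factors to a common library size) were 813.2, 817.8 and 837.3 in control and 129.7, 131.1 and 138.4 in knockdown libraries. Depth was 27742562 to 37551194 counts on genes per library. No library stood apart, as every library lay nearer to the other libraries of its group than to any library of the other group. Keratin genes marked the cells as epithelial, but EPCAM was nearly absent, with 9.327 to 22.04 normalized counts, and stromal genes such as COL1A1 and LUM were abundant. The summed level of 6 epithelial markers per kb ranged from 1561 to 1648 in control and from 985 to 1023 in knockdown libraries. Its part in the results below was not tested. Of these 6 markers, 4 were called lower, against 6.43% of all tested genes, with CDH1 at 24.6% and KRT19 at 54.5% of the control level. The 7 stromal markers summed to 483 to 552 in control and 460 to 469 in knockdown libraries, with PDGFRA called lower (log2 fold change -1.52). All 7 had a negative log2 fold change, with a median of -0.27, and PDGFRA was the only one called. The 4 endothelial markers summed to 1.11 to 1.23 in control and 1.14 to 1.31 in knockdown libraries, with CDH5 called higher and TIE1 called lower. The 5 leukocyte markers summed to 30.0 to 33.8 in control and 15.6 to 16.8 in knockdown libraries, where CD14, called lower, gave nearly all counts and CD3E none. The part of these markers in the results below was not tested either.

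In control cells the AP-1 RNA pool was dominated by JUN, JUND and FOSL2. Levels are compared between genes per length, as counts per kb of exon per 1000000 normalized counts of the library. JUN stood at 41.1 ± 1.11, JUND at 35.9 ± 0.990 and FOSL2 at 31.1 ± 0.310 (SD, n = 3 each). These levels placed JUN, JUND and FOSL2 at the 94.1, 92.8 and 91.3 percentiles of all tested genes. FOSL1 followed with 18.6 ± 1.62 and JUNB with 10.4 ± 0.453 (SD, n = 3 each). MAFF, a small Maf protein that lacks an activation domain, had 3.32 ± 0.257 (SD, n = 3). The inducible FOS was low at 0.861 ± 0.0464, and CREB5 (0.695 ± 0.0630), BATF3 (0.551 ± 0.0757) and FOSB (0.135 ± 0.0577) were lower still (SD, n = 3 each). Along this order neighbours did not overlap between control libraries, except CREB5 and BATF3. With the length of the canonical transcript, chosen after seeing the data, BATF3 (1.69) came before FOS (1.30) and CREB5 (0.950).

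A gene was called when its fold change was over 1.5 in either direction and its adjusted p under 0.05 in edgeR's fit across 15155 genes. By this rule 1 of 10 members was called, CREB5, against 11.7% of all genes tested. Called genes were higher in knockdown cells in 5.30% of all genes and lower in 6.43%, a division that turned over with library size alone as scaling, where 55.9% of calls were higher. With the adjusted p alone, 4 of 10 members passed (FOSL2, JUND, MAFF and CREB5), against 48.3% of all genes. The same 4 members had counts that did not overlap between the groups, against 57.3% of all genes. The median log2 fold change of the members was 0.08, beside 0.00 over all tested genes. Since the members were chosen on this comparison, nothing is read from these counts.

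**Figure D1:**
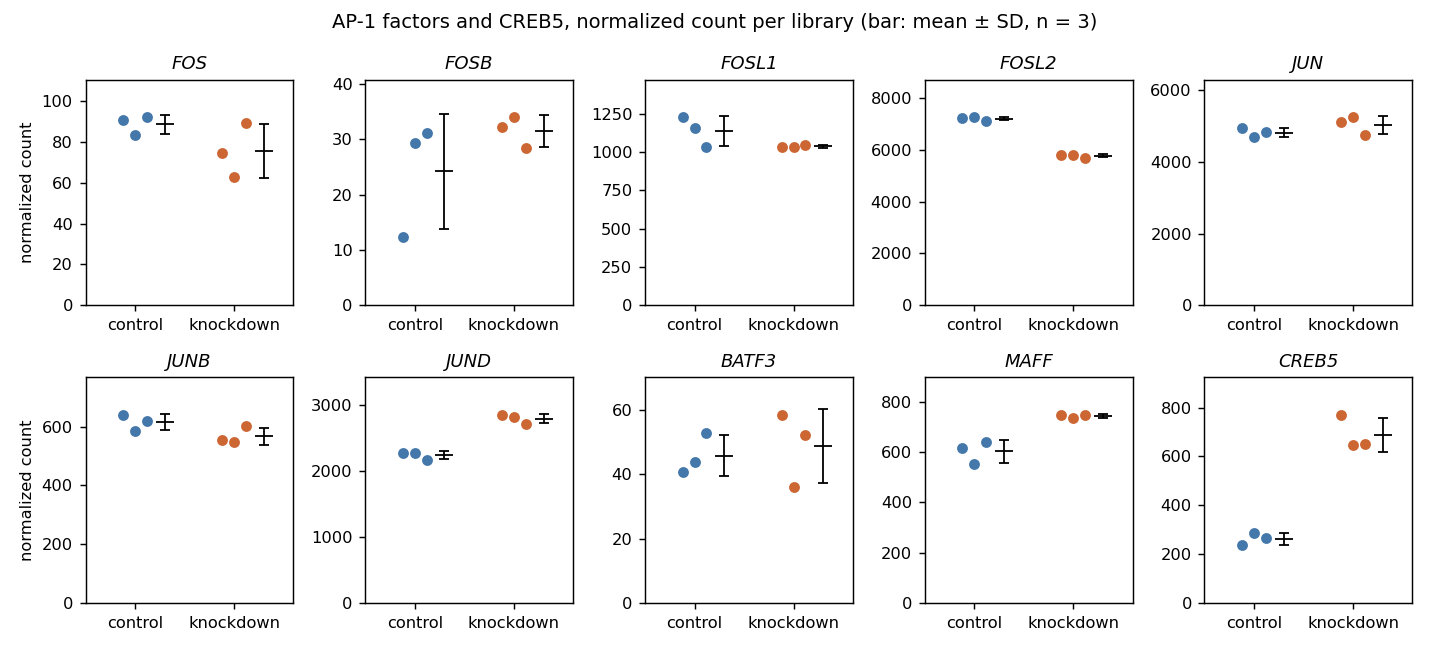
Normalized count of each AP-1 factor and CREB5 in the 3 control and 3 knockdown libraries, with mean ± SD beside the points and every axis starting at 0. CREB5 lies between 237.6 and 285.0 in control and between 648.7 and 769.7 in knockdown libraries, at 2.64 times its control level. FOSL2, JUND and MAFF are parted as well, at 0.801, 1.25 and 1.23 times their control levels.

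CREB5 (ENSG00000146592.17) spans chromosome 7 from 28299321 to 28825894 on the plus strand of GRCh38 and encodes a bZIP activator of the ATF2 type. Its normalized counts were 237.6, 285.0 and 265.3 in control and 769.7, 648.7 and 650.1 in knockdown libraries. All knockdown libraries lay above all control libraries, and the mean went from 263 ± 23.8 to 689 ± 69.5 (SD, n = 3 each). The knockdown level was 2.64 times the control level, with a log2 fold change of 1.40 (SE, the standard error, 0.0899), at rank 58 from the highest of 15155 genes. Leaving out single libraries gave 1.31 to 1.46. Per length the level went from 0.695 to 1.82 ± 0.184 (SD, n = 3), which still lies below MAFF and all Jun genes. The raw counts behind it were 251 to 256 in control and 573 to 908 in knockdown libraries, with at most 3 reads per library on the opposite strand.

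The genes whose profile over the 6 libraries lay closest to CREB5 were DCDC2, FAM234B, TRIM58, CNN1 and TGFB2. Likeness was the Euclidean distance between log2 CPM profiles centred on the control mean, among 11171 other genes with a mean count of at least 100, and the distances were 0.189, 0.196, 0.212, 0.287 and 0.313. DCDC2, a doublecortin domain gene of the cilium, had 109.8 to 130.7 normalized counts in control and 329.2 to 367.0 in knockdown libraries, and FAM234B went from 579 ± 28.7 to 1554 ± 33.2 (SD, n = 3 each). CNN1, which encodes the smooth muscle actin-binding protein calponin, went from 78.8 ± 1.09 to 203 ± 24.6 (SD, n = 3 each). The distances are over 6 libraries in 2 groups, and nothing on shared function or control is read from them.

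Among the Fos genes, FOSL2 was lower in all knockdown libraries and FOSL1, FOS and FOSB overlapped between the groups. FOSL2 (chromosome 2 from 28392448 to 28417317), a Fos protein without the strong activation domain of FOS, had 7239, 7259 and 7126 normalized counts in control and 5811, 5819 and 5699 in knockdown libraries. All knockdown libraries lay below all control libraries, at 80.1% of the control level, with a log2 fold change of -0.32 (SE 0.0341). The spread within each group was narrow, with SDs of 71.9 and 67.0 counts, and leaving out single libraries gave -0.33 to -0.31. This change is under the 1.5-fold limit. FOSL1 (chromosome 11 from 65892049 to 65900573), which encodes Fra-1, had 1226, 1157 and 1031 counts in control and 1032, 1031 and 1045 in knockdown libraries. Here the groups overlapped through control replicate 3, and the log2 fold change was -0.14 (SE 0.0593). It was -0.078 without control replicate 1 and -0.202 without control replicate 3.

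FOS (chromosome 14 from 75278826 to 75282230) and FOSB (chromosome 19 from 45467995 to 45475179) had few counts at this time point. FOS had 90.88, 83.36 and 92.23 normalized counts in control and 74.59, 63.12 and 89.63 in knockdown libraries, with overlap. Its log2 fold change of -0.24 (SE 0.150) was -0.125 without knockdown replicate 2 and -0.36 without knockdown replicate 3. FOSB had 12.31, 29.29 and 31.09 counts in control and 32.21, 33.99 and 28.36 in knockdown libraries. Control replicate 1 was the low one, and without it the log2 fold change of FOSB went from 0.41 (SE 0.290) to 0.067, and it was 0.650 without control replicate 3. No difference in FOS or FOSB was detectable at this depth.

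Among the Jun genes, JUND was higher in all knockdown libraries and JUN and JUNB overlapped. JUND (chromosome 19 from 18279694 to 18281622), the Jun protein most often linked to restrained growth, had 2276, 2274 and 2168 normalized counts in control and 2848, 2812 and 2712 in knockdown libraries. This gives 1.25 times the control level and a log2 fold change of 0.32 (SE 0.0397), under the 1.5-fold limit, with 0.30 to 0.34 when single libraries were left out. JUN (chromosome 1 from 58776845 to 58784048), the founding member and the main partner of Fos proteins, had 4943, 4683 and 4827 counts in control and 5100, 5244 and 4748 in knockdown libraries. JUNB (chromosome 19 from 12791486 to 12793315), which can oppose JUN, had 639.9, 586.9 and 620.7 in control and 554.4, 546.7 and 601.3 in knockdown libraries. The log2 fold changes of JUN and JUNB were 0.06 (SE 0.0430) and -0.12 (SE 0.0626), and that of JUN was 0.040 without control replicate 2, 0.035 without knockdown replicate 2 and 0.105 without knockdown replicate 3. JUNB overlaps HOOK2 on the opposite strand, and 31.9% of its reads were dropped in the unstranded column, whose fold change was -0.19.

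BATF3 and MAFF are, beside CREB5, the members outside the Fos and Jun families. BATF3 (chromosome 1 from 212686417 to 212699840), known from dendritic cells as a partner of Jun proteins, had 40.71, 43.93 and 52.85 normalized counts in control and 58.49, 35.93 and 52.19 in knockdown libraries. The groups overlapped, and the log2 fold change of 0.10 (SE 0.207) became -0.066 without knockdown replicate 1. MAFF (chromosome 22 from 38200767 to 38216507) had 618.2, 550.8 and 640.4 counts in control and 746.8, 736.1 and 747.7 in knockdown libraries. All knockdown libraries lay above all control libraries at 1.23 times the control level, with a log2 fold change of 0.30 (SE 0.0623), under the 1.5-fold limit. MAFF overlaps PLA2G6 on the opposite strand, and the unstranded column, which drops 18.9% of its reads, also gave 0.30.

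**Figure D2:**
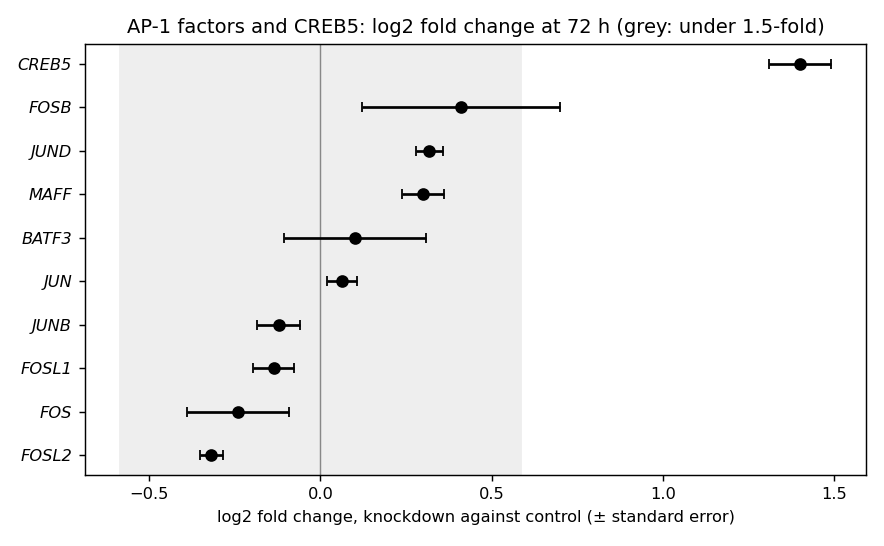
Log2 fold change of the 10 genes, knockdown against control, with standard errors from edgeR and a grey band for changes under 1.5-fold. CREB5 at 1.40 is the gene outside the band, and the other 9 lie between -0.32 and 0.41.

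Jun genes held a larger share of Fos and Jun RNA in knockdown than in control libraries, at a similar total. Summed over the 7 Fos and Jun genes, the level per kb was 138 ± 3.34 in control and 140 ± 2.76 in knockdown cells (SD, n = 3 each). Jun genes took 63.1%, 62.7% and 63.9% of this sum in control and 69.7%, 69.8% and 68.8% in knockdown libraries, without overlap. JUND held 26.0% ± 0.446 of the pool in control and 31.9% ± 0.299 in knockdown cells, and FOSL2 held 22.5% ± 0.417 and 17.8% ± 0.146 (SD, n = 3 each), both without overlap. JUN held 29.8% ± 0.718 and 30.6% ± 0.977, with overlap (SD, n = 3 each). The mean share of JUNB went the other way, from 7.53% ± 0.289 to 6.85% ± 0.497, with overlap (SD, n = 3 each). FOSL1 held 13.5% ± 0.872 and 12.1% ± 0.334, also with overlap (SD, n = 3 each). FOS and FOSB together stayed under 1% in every library. With canonical transcript lengths the share of Jun genes was 62.4% in control and 68.6% in knockdown cells. These are shares of RNA, and neither protein nor phosphorylation, by which AP-1 activity is also set, was measured in these libraries.

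**Figure D3:**
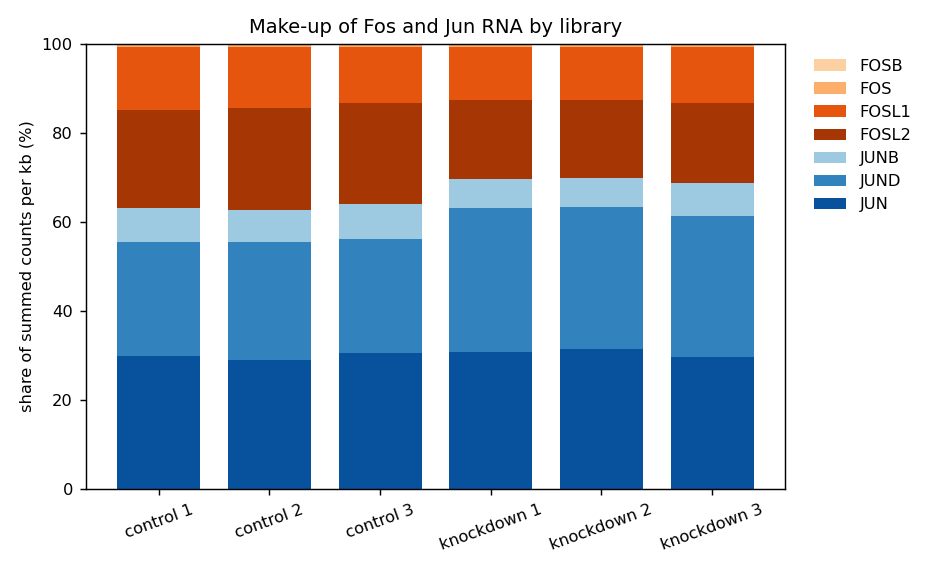
Share of each Fos and Jun gene in their summed counts per kb of exon, in percent, as stacked bars for the 6 libraries. Jun genes (blue) reach 62.7% to 63.9% in control and 68.8% to 69.8% in knockdown libraries, with a wider JUND band and a narrower FOSL2 band in knockdown libraries.

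Among the 11 other partners of AP-1 dimers reported here, 7 were tested and 3 were called higher, beside 5.30% of all tested genes, with a median log2 fold change of 0.22. JDP2, a Jun partner known as a repressor of AP-1, had 430.7, 415.7 and 400.0 normalized counts in control and 997.7, 1060 and 940.5 in knockdown libraries. It rose to 2.41 times its control level (log2 fold change 1.27, SE 0.0624, adjusted p = 5.8e-09, edgeR quasi-likelihood). ATF3, a stress-induced factor, rose from 214 ± 7.29 to 376 ± 21.5 (SD, n = 3 each; log2 fold change 0.82, adjusted p = 3.0e-06, edgeR). MAFK, the small Maf relative of MAFF and named after its values were seen, rose from 847 ± 110 to 1370 ± 44.8 (SD, n = 3 each; adjusted p = 5.8e-06, edgeR). The close relatives of CREB5 were not called, ATF2 with 3317 ± 66.4 and 3385 ± 58.3 and ATF7 with 1473 ± 64.1 and 1474 ± 57.4 normalized counts (SD, n = 3 each), and their log2 fold changes were 0.03 (SE 0.0367) and 0.00 (SE 0.0476).

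Of 15 CREB relatives and coactivators, 14 were tested, none was called higher and 2 were called lower (5.30% and 6.43% of all tested genes), with a median log2 fold change of 0.02. ATF1, which binds the same element as CREB1, fell from 1647, 1672 and 1628 normalized counts in control to 394.2, 449.6 and 428.9 in knockdown libraries. This leaves 25.7% of the control level (log2 fold change -1.96, SE 0.0547, adjusted p = 4.6e-11, edgeR quasi-likelihood). CRTC3, a coactivator of CREB proteins, fell to 60.2% of its control level (log2 fold change -0.73, SE 0.0630, adjusted p = 8.4e-07, edgeR). CREB1 itself had 3132 to 3319 counts in control and 3006 to 3046 in knockdown libraries (adjusted p = 0.056, edgeR).

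Small interfering RNAs can also lower transcripts whose 3′ ends match bases 2 to 8 of the guide strand, the seed. The guide strand of siRNA LINC01133a is shown with the seed in capitals, followed by the matches in ATF1 (chr12:50820428-50820455 and chr12:50820588-50820615, plus strand) and CRTC3 (chr15:90642178-90642205, plus strand), which are printed because ATF1 and CRTC3 were the 2 CREB relatives called lower.
Guide: uCCAUUCUcagguaacuuc
ATF1 site 1: attttttatcAGAATGGAaaaagaactg
ATF1 site 2: gtgctttaatAGAATGGAatgtttacag
CRTC3 site: cagccaaaatAGAATGGAatagaatgaa

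Capitals in the sites mark the 8-base match AGAATGGA. None of the 10 AP-1 factors and CREB5 held even the 7-base match AGAATGG in an annotated 3′ UTR (GENCODE v44), against 25.4% of 12544 tested genes with a 3′ UTR. The 8-base match was found in 9.43% of these genes. JDP2 and ATF3, which rose, each held 1 match of 7 bases and none of 8. Of the 14 tested CREB relatives and coactivators, 3 held an 8-base match: ATF1, CRTC3 and also CREM, which had 102% of its control level (adjusted p = 0.80, edgeR). In the lists below other than the kinases, an 8-base match was found in ELK3, ELK4, MRTFB, IER5 and FBXW7. These had 76.7%, 90.0%, 100%, 80.7% and 124% of their control levels, and none was called. None of the 16 tested textbook AP-1 targets held an 8-base match, and 4 of these were called lower. The part of the seed in any change was not tested here.

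Of 22 MAP kinases, MAP kinase kinases and RSK or MSK kinases, all tested, none was called higher and 2 were called lower, beside 5.30% and 6.43% of all tested genes, with a median log2 fold change of -0.01. MAPK10, which encodes the JNK isoform best known from neurons, fell from 195 ± 0.456 to 106 ± 6.04 normalized counts and MAP2K6, an activator of p38 kinases, from 413 ± 70.1 to 231 ± 15.5 (SD, n = 3 each; adjusted p = 1.4e-05 and 4.7e-05, edgeR). An 8-base match to the seed was found in 5 of the 22 kinases: MAPK10 and, at 98.2%, 100%, 89.4% and 127% of their control levels and not called, MAPK9, MAP2K5, RPS6KA1 and RPS6KA2. MAP2K6 holds none. MAPK8, the JNK gene with broad expression, had 1904 ± 23.7 and 1935 ± 21.3 counts (SD, n = 3 each). SRF, ELK and MRTF factors act at the serum response element of genes such as FOS, and MEF2 factors bind an element of their own. Of these 9 factors, 8 were tested and 0 were called by edgeR, beside 11.7% of all tested genes, and DESeq2 also called 0. A p under 0.05 before and after adjustment was found for 5 of the 8 (edgeR). This lies near the share of all tested genes with an adjusted p under 0.05, 48.3%, and nothing is read from it. SRF had a log2 fold change of 0.42 (SE 0.0465) and ELK3, a ternary complex repressor, one of -0.38 (SE 0.0498). Their median was 0.04.

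Other immediate early genes were called in both directions. Of 23 listed, 21 were tested, 3 were called higher and 1 lower (5.30% and 6.43% of all tested genes), with a median log2 fold change of -0.05. EGR1, a zinc finger factor induced together with FOS, rose from 235.7, 232.1 and 271.5 to 518.8, 514.7 and 456.1 normalized counts (log2 fold change 1.01, SE 0.0851, adjusted p = 6.6e-07, edgeR). BTG2, an antiproliferative p53 target, rose from between 148.7 and 173.1 to between 254.3 and 289.4 counts and KLF4, named after its values were seen, from a mean of 59.9 to one of 98.3 (adjusted p = 3.5e-05 and 0.0022, edgeR). KLF2, a factor induced by shear stress, fell to 40.5% of its control level (log2 fold change -1.30, adjusted p = 2.1e-07, edgeR). MYC had 2466 ± 72.1 and 2411 ± 114 and DUSP1, a MAP kinase phosphatase, 3610 ± 152 and 3347 ± 28.3 counts (SD, n = 3 each), both within 1.5-fold.

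Of 25 genes taken as textbook AP-1 targets, 16 were tested, 1 was called higher and 4 lower, beside 5.30% and 6.43% of all tested genes, and the median log2 fold change was -0.26. Of the 16, 14 had a negative log2 fold change, as had 49.5% of all tested genes, and nothing particular to AP-1 targets is read from this. HBEGF, a ligand of the EGF receptor, had 1298, 1254 and 1199 normalized counts in control and rose to 2420, 2511 and 2369 in knockdown libraries (log2 fold change 0.96, adjusted p = 3.1e-09, edgeR). PLAU, which encodes urokinase, fell from 411.8, 368.4 and 435.2 to 216.2, 202.0 and 200.8 (log2 fold change -0.97, adjusted p = 1.2e-06, edgeR). MMP1, the interstitial collagenase, was scarce, with 26.1 ± 7.35 and 12.7 ± 2.52 counts (SD, n = 3 each; adjusted p = 0.012, edgeR), and its call was lost with DESeq2 (0.055), with the unstranded column (0.061) and without control replicate 1 (0.061). CXCL8 and HMOX1, named after their values were seen, were called lower as well, at 51.4% and 59.2% of the control level. Metalloproteinase genes MMP3, MMP9, MMP10 and MMP13 did not reach the count needed for a test. MMP3 had 2.84, 3.379 and 2.073 normalized counts in control and 6.781, 12.62 and 9.076 in knockdown libraries, opposite in direction to MMP1. Many of these genes answer to other factors too.

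Of 9 factors that turn over AP-1 proteins or mRNAs, all tested, none was called higher and 1 lower (5.30% and 6.43% of all tested genes), with a median log2 fold change of -0.06. ZFP36L2, which binds AU-rich elements and hastens mRNA decay, fell from 4894, 4809 and 4793 to 2506, 2605 and 2896 normalized counts (log2 fold change -0.86, SE 0.0490, adjusted p = 2.1e-08, edgeR). FBXW7 and COP1, which direct Jun proteins to degradation, had log2 fold changes of 0.31 and 0.09.

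**Figure D4:**
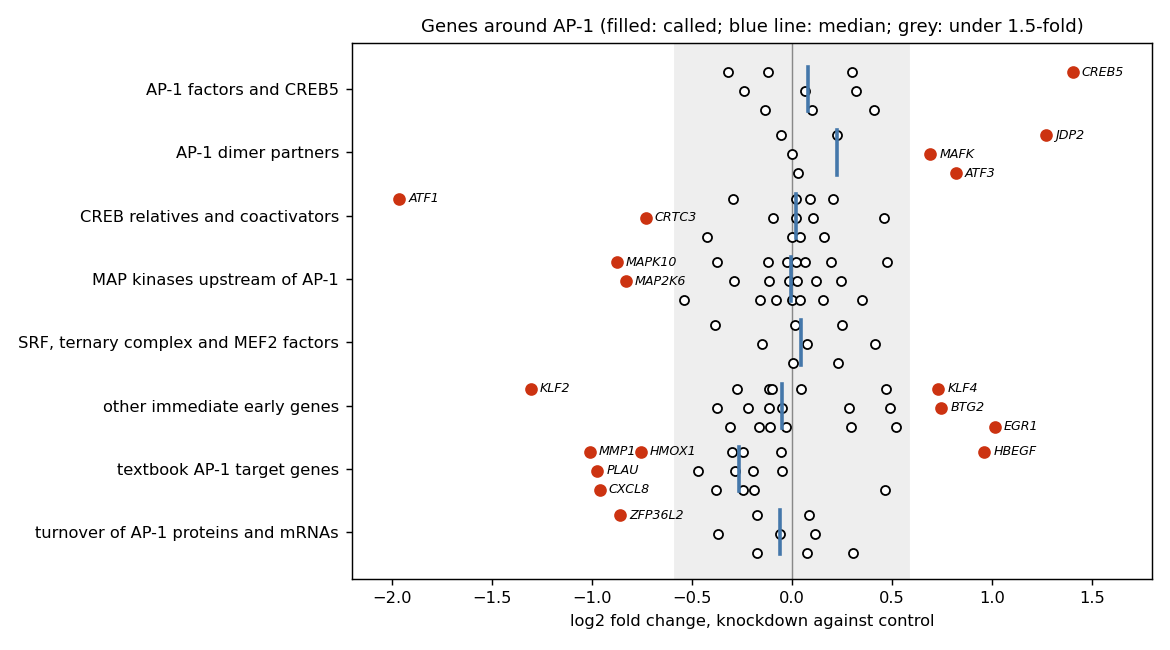
Log2 fold change, knockdown against control, of each tested gene in the AP-1 network, 1 point per gene and 1 band per list, with filled points for genes called and a blue line at the list's median. ATF1 at -1.96 is farthest to the left and CREB5 at 1.40 and JDP2 at 1.27 are farthest to the right.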

How the data were processed

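Poly-A RNA-seq of 12Z cells was analysed in 6 libraries, 3 per group. The authors aligned reads with STAR 2.7.6a to GRCh38.p13 with GENCODE v36, kept uniquely mapped reads and deposited raw counts per gene, without normalization. Genes with near-identical copies or overlapping neighbours can be counted incompletely. Counts of the reverse-stranded column were used, as these made up 93.9% to 94.1% of stranded counts. Symbols, exon lengths and coordinates were taken from GENCODE v44 (GRCh38), and 60419 of 60660 gene IDs were matched.

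Counts were filtered with filterByExpr (minimum count 10), scaled by TMM and fitted in edgeR 4.0.16 under R 4.3.3 (quasi-likelihood), by group without further terms. Benjamini-Hochberg adjusted p-values cover the 15155 tested genes. The procedure was checked on simulated counts. Genes were called with the cutoffs of the study (fold change over 1.5, adjusted p under 0.05). Fold changes are log2, knockdown against control. Errors are over 3 libraries per group, whose number limits the precision.

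The members and gene lists were chosen with earlier results of these data known. A listed partner of AP-1 dimers is not reported here, and the count and median of that list leave it out. Named were all members, LINC01133, up to 2 called genes per list and direction (or, where none was called, the 2 with the largest change), and the 5 genes most like CREB5. The rule also covered the marker lists. Outside it, and named after their values were seen, were ATF2, ATF7, MAFK, CREB1, CREM, ELK4, MRTFB, MAPK8, MAPK9, MAP2K5, RPS6KA1 and RPS6KA2. So were KLF4, IER5, MYC, DUSP1, CXCL8, HMOX1, MMP3, MMP9, MMP10, MMP13, FBXW7 and COP1, and the markers KRT7, EPCAM, COL1A1, LUM and CD3E. Alternatives were DESeq2 1.42.0, median-of-ratios factors, library size alone, 2 other filters, a replicate block, counts without strand and each library left out. Same-numbered libraries did not deviate together (correlations -0.015, 0.0049 and 0.057 over genes), so no pairing was assumed. Library preparation is given as TruSeq in the study and as NEB in the labels.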

Additional observations from a re-analysis of the deposited data

How the results depend on the processing

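Over 13 alternatives the number of genes called ranged from 1446 (DESeq2) to 1963 (no filter on low counts), and the number of members called stayed at 1, CREB5. The log2 fold changes of FOSL2, JUND, MAFF and CREB5 kept their direction in all 13, and scaling by library size alone moved them most among the other scalings, to -0.26, 0.38, 0.36 and 1.46, with the median of all genes at 0.065. BATF3 turned to -0.066 without knockdown replicate 1, and ranged up to 0.285 when other single libraries were left out. The share of Jun genes in the Fos and Jun pool was 62.5% in control and 68.8% in knockdown cells with the unstranded column, and 62.4% and 68.6% with canonical transcript lengths, a length chosen after seeing the data. With the replicate number as a block, 1747 genes were called and CREB5 had a log2 fold change of 1.40, and no call of a member changed. Members with under 100 counts (FOS, FOSB, BATF3) had standard errors of 0.150 to 0.290, so changes of this size could not be resolved. MMP1 could not be tested with a minimum of 10 counts in every library.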
